A study of Homo sapiens with 9 samples.

Results

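The comparison described here asks what the flavour and nicotine of an e-cigarette liquid add to its carrier. It sets 3 RNA sequencing libraries of cells exposed to EC condensate against 3 of cells exposed to PG/VG condensate, 6 of the 9 libraries of the study. The cells were BEAS-2B, a human bronchial epithelial line immortalized with viral genes. PG/VG was the aerosol condensate of a carrier liquid of propylene glycol and vegetable glycerin. EC was the condensate of a commercial Virginia tobacco flavoured liquid that held the same kinds of carrier, flavour and 18 mg/mL nicotine. Both were given at 2% (v/v) for 24 h, and the 3 remaining libraries came from control cells in medium alone. The liquids were separate products, each vaporized with its own new coil, and flavour and nicotine were only given together, so the 2 additions and any other difference between the liquids cannot be told apart. The replicate numbers 2, 3 and 4 also mark the batch, and each batch has 1 library per condition. All values come from a single cell line.

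Libraries held 16168260 to 24917838 counts on genes, and 16030 of 63187 genes had at least 10 counts in at least 3 of the 9 libraries and were tested. Batch 4 stood apart in the deviations of libraries from their condition means, compared across genes between conditions. Libraries of batches 2 and 3 correlated with each other at 0.280 to 0.426, and with those of batch 4 at −0.54 to −0.42. The deviations within a condition cancel out, so the negative values alone would not set a batch apart. The batch was therefore a term in the fit, and values are given for every batch. The epithelial label was met in part. The keratins KRT7, KRT8 and KRT18 were present, with KRT8 at 750.7 to 1173 CPM (counts scaled to library size) in the 9 libraries. KRT7 was itself lower in EC (log2 fold change, LFC, of −0.32 ± 0.071, adjusted p = 0.032). The airway basal cell markers KRT5 and TP63 were at or near 0, with at most 0.317 CPM. E-cadherin (CDH1) reached at most 1.59 CPM and EPCAM 1.93 CPM, whereas the mesenchymal marker VIM lay between 821 and 1112 CPM. Of the other mesenchymal markers CDH2, PDGFRB and THY1 were also present, while DCN, LUM, PDGFRA and COL1A2 stayed at or below 0.674 CPM. The leukocyte markers PTPRC and CD3E stayed at or below 0.0857 CPM, and CD14 lay between 3.07 and 8.88 CPM. The summed level of the 8 epithelial markers was 1719 to 2734 CPM with PG/VG and 1458 to 2284 CPM with EC, and its part in the results was not tested. The libraries are bulk RNA, in which fewer cells of a kind and less RNA per cell cannot be told apart.

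Several sensor systems of airway cells are relevant to an inhaled mixture. The aryl hydrocarbon receptor (AHR) is a ligand-activated transcription factor that pairs with ARNT on promoter motifs with the core GCGTG and induces xenobiotic-oxidizing cytochromes together with its own repressors, AHRR and TIPARP. NRF2 is released from its inhibitor KEAP1 by electrophiles and oxidants and induces genes for glutathione, quinone reduction, haem breakdown and iron storage. Nicotine acts on nicotinic acetylcholine receptors, which are ion channels of 5 subunits. Filamins, actinins and the matrix protein fibronectin link the actin cytoskeleton to cell adhesion sites.

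A gene was called a differentially expressed gene (DEG) at an adjusted p under 0.05, from the quasi-likelihood test of edgeR adjusted by the Benjamini-Hochberg method. EC differed from PG/VG in 137 DEGs, which is 0.855% of the genes tested, with 89 higher (0.555%) and 48 lower (0.299%) in EC. The rises were larger than the falls at the median. The median LFC was 0.55 in the higher DEGs, a 1.47-fold difference, and −0.37 in the lower DEGs, a 1.29-fold difference. Among the higher DEGs 17 were past an LFC of 1, and DHFRP1 was the 1 lower DEG past −1. The difference had the same sign in every batch in 136 of 137 DEGs, as in 31.3% of all genes tested. The 3 EC libraries did not overlap the 3 PG/VG libraries in 47 DEGs, as in 7.90% of all genes. Both follow in part from the selection, since the test used these same libraries with the batch as a term. The median difference of the higher DEGs was 0.66 in batch 2, 0.56 in batch 3 and 0.43 in batch 4, and that of the lower DEGs −0.49, −0.30 and −0.32. The lists described below hold 27 of the higher and 18 of the lower DEGs. They were written with earlier results of these data known, so their shares beside those of all genes are a description only.

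How many genes passed rested on single libraries. Without PG/VG replicate 2, 29 genes were higher and 4 lower, and 33 of the 137 DEGs still passed. Without EC replicate 2 the counts were 39 and 8, and 43 of the DEGs passed. Without PG/VG replicate 4 they were 41 and 21, while the lower genes increased to 81 without EC replicate 3 and to 80 without control replicate 4. A total of 25 DEGs, 22 higher and 3 lower, passed with any single library left out, and the 3 lower ones were PDE1C, TIMP3 and CCBE1. Scaling by total counts alone gave 145 higher and 31 lower genes, or 82.4% higher in place of 65.0%. The median LFC of all genes was then 0.036 in place of 0.0024.

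**Figure D1:**
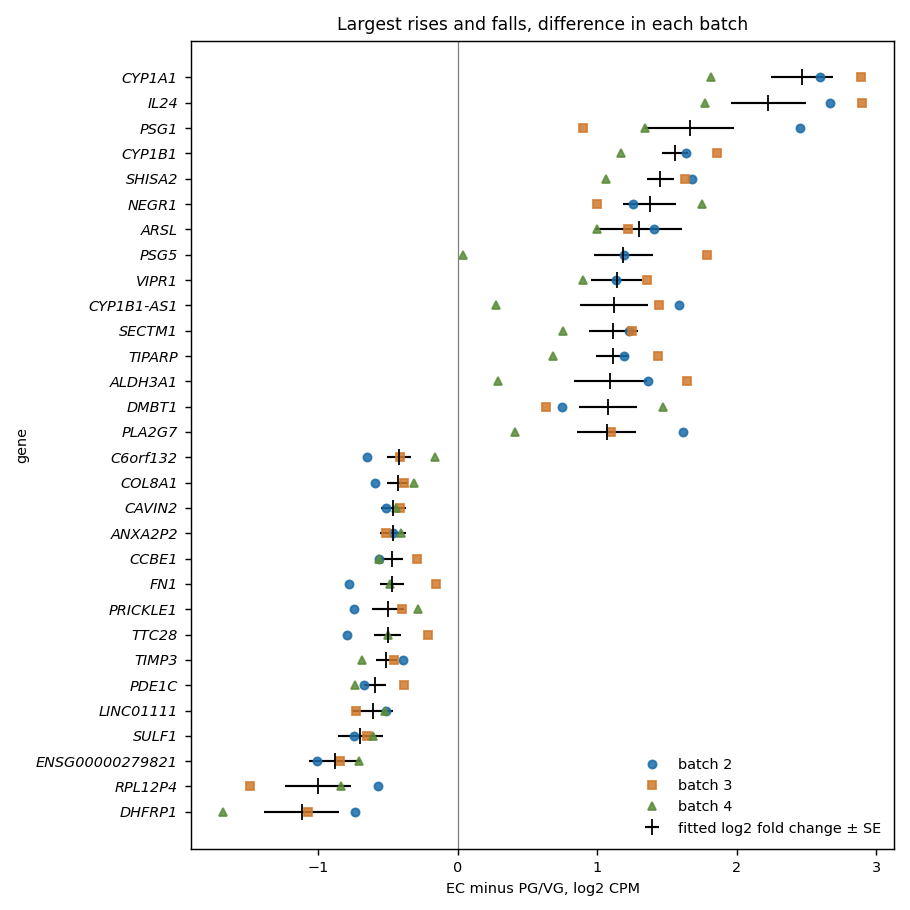
Log2 difference in CPM between EC and PG/VG within batch 2 (circles), batch 3 (squares) and batch 4 (triangles) for the 15 largest rises and 15 largest falls, with the fitted LFC and its SE as a black tick and bar. These genes were chosen for the same sign in all 3 batches, so every batch value lies on the same side of 0 as its fitted value. PSG5 in batch 4, at 0.037, lies closest to 0.

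The AHR target genes held the largest rise of the comparison. Of 15 targets listed, 12 were expressed at testable levels. The fitted LFC was above 0 in all 12, as in 8120 of all 16030 genes tested, with a median of 0.59 against 0.0024 over all genes. Of the 12, 6 passed the test, all higher in EC, where 0.555% of all genes did. They were the cytochromes CYP1A1 and CYP1B1, the ADP-ribosyltransferase TIPARP, the aldehyde dehydrogenase ALDH3A1, the quinone reductase NQO1 and the amino acid transporter SLC7A5.

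The 250 bases before the start of CYP1A1 (GRCh38.p14, chr15:74725529-74725778, minus strand) and TIPARP (chr3:156674340-156674589, plus strand) are shown from RefSeq, 5′ to 3′, because these genes rose most among the AHR targets with a promoter in the table. Capitals mark the core motif GCGTG or its reverse complement CACGC.

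CYP1A1: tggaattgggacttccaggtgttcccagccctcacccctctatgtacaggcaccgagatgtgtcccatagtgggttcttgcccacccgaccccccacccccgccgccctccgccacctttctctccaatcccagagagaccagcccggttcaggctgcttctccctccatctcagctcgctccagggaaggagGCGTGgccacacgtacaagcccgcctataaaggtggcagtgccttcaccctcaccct

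TIPARP: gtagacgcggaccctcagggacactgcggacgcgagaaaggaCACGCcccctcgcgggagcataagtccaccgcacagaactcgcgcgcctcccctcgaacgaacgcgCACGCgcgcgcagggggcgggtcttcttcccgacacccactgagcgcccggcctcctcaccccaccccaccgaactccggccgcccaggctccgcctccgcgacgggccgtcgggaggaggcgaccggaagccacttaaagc

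CYP1A1 has 1 such motif, which begins 57 bases before the start, and TIPARP has 2, which begin 208 and 142 bases before it. The motif is common. It stands in 48.1% of the 16564 RefSeq promoter windows of the genes tested (250 bases before to 50 after the start), in 44.6% of 92 windows of higher DEGs and in 53.4% of 58 windows of lower DEGs. A match is a description of the sequence only.

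CYP1A1 (ENSG00000140465, about chr15:74719500-74725500 on GRCh38, minus strand, with gene positions rounded here and below), which oxidizes polycyclic aromatic compounds, was low without EC. Its level in replicates 2, 3 and 4 was 1.14, 1.3 and 2.76 CPM in control, 1.88, 1.42 and 2.62 CPM with PG/VG and 11.9, 11.2 and 9.47 CPM with EC. Every EC library lay above every other library, with an LFC against PG/VG of 2.47 ± 0.22 (SE, n = 3 per group here and for all genes below, adjusted p = 1.06e-05). CYP1B1 (ENSG00000138061, chr2:38067000-38109900 on GRCh38, minus strand), a related cytochrome that also oxidizes estradiol, had 409.8, 381 and 355 CPM in control, 517, 452 and 526 CPM with PG/VG and 1606, 1638 and 1188 CPM with EC. Its LFC was 1.56 ± 0.095 (adjusted p = 7.54e-08), and again the groups did not overlap. PG/VG alone was above control for this gene by an LFC of 0.39 (adjusted p = 0.0236). The antisense transcript CYP1B1-AS1 had 1.35, 1.42 and 2.402 CPM with PG/VG and 4.24, 4.04 and 2.93 CPM with EC (LFC 1.12 ± 0.24, adjusted p = 0.0262). Other genes overlap 13.0% of the exon length of CYP1B1 and 11.9% of that of CYP1B1-AS1. The strand setting of the counting is not given in the sources used here, so how reads on these overlapped parts were treated is not known. TIPARP rose from 56.03, 51.9 and 74.4 CPM to 128, 140.4 and 119.9 CPM (LFC 1.11 ± 0.12, adjusted p = 0.000787) while its control level was 53.7, 53.7 and 73.7 CPM. These 3 AHR targets CYP1A1, CYP1B1 and TIPARP, and NQO1, passed with any 1 library left out.

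ALDH3A1, which oxidizes aromatic and lipid-derived aldehydes, was low throughout, at 1.43, 0.766 and 1.97 CPM with PG/VG and 3.85, 2.596 and 2.43 CPM with EC (LFC 1.09 ± 0.26, adjusted p = 0.0452). The EC libraries did not overlap the others, but in batch 4 the gain was small, with batch differences of 1.37, 1.64 and 0.29 in log2. SLC7A5, which imports large neutral amino acids, had 2106, 2178 and 1101 CPM with PG/VG and 2508, 2574 and 1542 CPM with EC (LFC 0.33 ± 0.078, adjusted p = 0.0439). The call of ALDH3A1 was lost without PG/VG replicate 2 or 3 or EC replicate 2 or 3, and that of SLC7A5 without PG/VG replicate 2, 3 or 4 or EC replicate 4. Over these fits the largest adjusted p among the 6 targets was 0.408, without PG/VG replicate 2. The repressor AHRR had 1.93, 1.48 and 1.63 CPM with PG/VG and 2.301, 3.62 and 2.43 CPM with EC (LFC 0.70 ± 0.24), and did not pass (adjusted p = 0.179), with 58.7% of its exon length overlapping other genes. The remaining targets that did not pass were ABCG2 (LFC 0.48), EREG (0.43), PTGS2 (0.41), HES1 (0.077) and SERPINB2 (1.63). None of 7 genes of the receptor machinery passed in the quasi-likelihood test or at an unadjusted p under 0.05, which 12.9% of all genes tested reached, and their median LFC was −0.020. The receptor gene AHR had 56.7, 51.04 and 49.2 CPM with PG/VG and 66.1, 61.2 and 48.9 CPM with EC (adjusted p = 0.453), with 35.2% of its exon length overlapped, and its partner ARNT 54.8, 50.8 and 44.4 CPM with PG/VG and 46.8, 49.7 and 42.6 CPM with EC (adjusted p = 0.594).

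**Figure D2:**
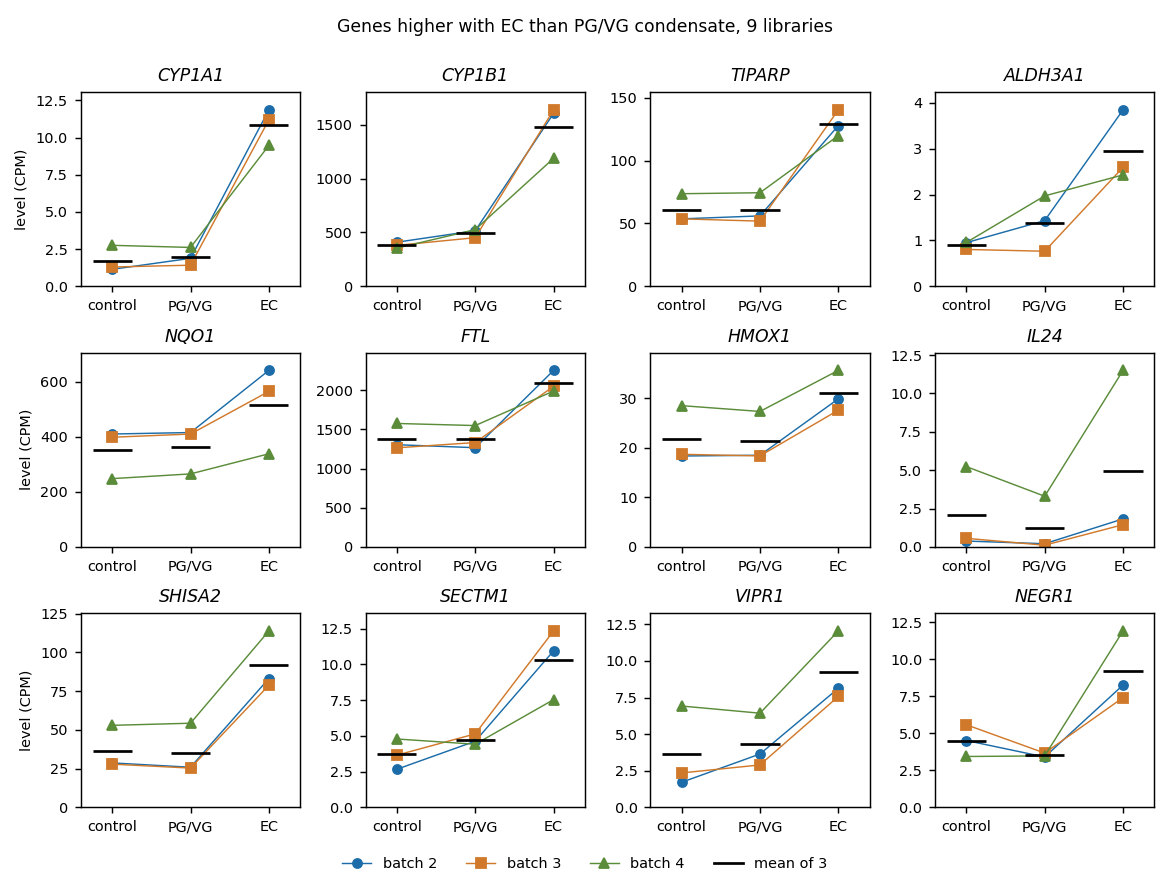
Level in CPM (linear axes from 0) of 12 genes higher with EC, in control, PG/VG and EC libraries. Lines join the 3 libraries of a batch and black bars are group means. Every EC library lies above every PG/VG library in all panels except NQO1 and IL24, where batch 4 lies apart from the other batches.

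Of 26 NRF2 target genes tested 5 passed, all higher in EC, namely FTL, HMOX1, NQO1, PIR and OSGIN1. The fitted LFC was above 0 in 25 of the 26, with a median of 0.20, and 17 were above 0 in every batch. Of all 16030 genes tested 0.555% were called higher, 8120 were above 0 and 2687 were above 0 in every batch. FTL, the light chain of the iron store ferritin, had 1304, 1264 and 1575 CPM in control, 1266, 1332 and 1549 CPM with PG/VG and 2253, 2050.4 and 1989.5 CPM with EC (LFC 0.61 ± 0.080, adjusted p = 0.000334). The EC libraries were all above the rest, and PG/VG differed from control by an LFC of 0.0023. Ferritin genes have processed pseudogenes, and reads that matched several places were not counted. The heavy chain FTH1 had 376, 528 and 471 CPM with PG/VG and 671, 570.3 and 576 CPM with EC (LFC 0.41 ± 0.10, adjusted p = 0.1) and did not pass. HMOX1, which breaks down haem and releases its iron, had 18.5, 18.4 and 27.4 CPM with PG/VG and 29.9, 27.6 and 35.7 CPM with EC (LFC 0.55 ± 0.092, adjusted p = 0.00265), and its EC and PG/VG libraries did not overlap.

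The promoter of FTL (GRCh38.p14, chr19:48965059-48965308, plus strand, 250 bases before the start, from RefSeq) is shown because FTL had the smallest adjusted p of these NRF2 targets, with GCGTG or CACGC in capitals at 195 and 177 bases before the start. The motif that NRF2 binds, searched on both strands as TGACNNNGC, is not in this window. Windows of higher DEGs held it in 22.8% of cases, those of lower DEGs in 6.9% and those of the genes tested in 14.5%, which is a description only.

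FTL: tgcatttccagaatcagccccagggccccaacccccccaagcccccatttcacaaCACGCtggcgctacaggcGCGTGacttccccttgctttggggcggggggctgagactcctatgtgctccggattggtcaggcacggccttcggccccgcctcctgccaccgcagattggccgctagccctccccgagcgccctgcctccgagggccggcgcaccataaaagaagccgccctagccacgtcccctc

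NQO1, a target of both AHR and NRF2 that reduces quinones, had 409.6, 398 and 248 CPM in control, 415, 409.6 and 265 CPM with PG/VG and 641, 564 and 338 CPM with EC. The groups overlapped because batch 4 was lower in all 3 conditions, yet EC was above PG/VG in each batch, by 0.63, 0.46 and 0.35 in log2 (LFC 0.48 ± 0.068, adjusted p = 0.000698). PIR, an iron-binding nuclear protein, had 11.9, 11.8 and 6.09 CPM with PG/VG and 19.1, 18.1 and 8.58 CPM with EC (LFC 0.61 ± 0.11, adjusted p = 0.00686). It was also the 1 of these 5 targets that passed as higher in PG/VG than control, by an LFC of 0.55 (adjusted p = 0.0129). OSGIN1, an oxidative stress response gene, had 5.12, 6.07 and 10.1 CPM with PG/VG and 8.45, 8.94 and 18.3 CPM with EC (LFC 0.73 ± 0.13, adjusted p = 0.00685). Genes of glutathione and thioredoxin supply stayed below the threshold, with LFCs of 0.24 for GCLM, 0.077 for GCLC, 0.15 for TXNRD1 and −0.11 for SLC7A11. Without PG/VG replicate 2 the calls of HMOX1 and PIR were lost (adjusted p = 0.0518 and 0.172). PIR was also lost without EC replicate 2 (adjusted p = 0.0555) and OSGIN1 without PG/VG replicate 4 (adjusted p = 0.13).

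Of 23 aldehyde and carbonyl clearance enzymes tested, 2 passed, ALDH3A1 and ALDH1A3, where 0.855% of all genes did. The median LFC of the 23 was 0.052. ALDH1A3, which makes retinoic acid from retinaldehyde, had 29.8, 35.9 and 54.9 CPM with PG/VG and 55.1, 50.9 and 72.5 CPM with EC (LFC 0.59 ± 0.088, adjusted p = 0.000874), and other genes overlap 33.3% of its exon length. It passed with any 1 library left out. None of 25 steroid and retinoid metabolism enzymes passed, and 5 of them had an unadjusted p under 0.05, as had 12.9% of all genes (median LFC −0.0067). The metallothioneins MT1E and MT2A, metal-binding proteins named here after their values were seen, were also higher in EC, with LFCs of 0.55 ± 0.094 (adjusted p = 0.0045) and 0.39 ± 0.090 (adjusted p = 0.0488).

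Of 23 cytokine and chemokine genes tested 3 passed, all higher in EC. The fitted LFC was above 0 in 20 of the 23, with a median of 0.31, and 13 were above 0 in every batch. Of all 16030 genes tested 0.555% were called higher, 8120 were above 0 and 2687 were above 0 in every batch. IL24, a cytokine of the interleukin 10 family, had the second largest rise among the named genes. Its level was 0.381, 0.557 and 5.23 CPM in control, 0.205, 0.109 and 3.302 CPM with PG/VG and 1.82, 1.45 and 11.5 CPM with EC (LFC 2.23 ± 0.27, adjusted p = 0.000128). Batch 4 was higher than the other batches in every condition, and the rise from PG/VG was 2.67, 2.90 and 1.77 in log2 in batches 2, 3 and 4. Other genes overlap 41.6% of its exon length. CXCL2, a chemokine for neutrophils, had 1.597, 1.15 and 1.37 CPM with PG/VG and 3.33, 2.43 and 2.63 CPM with EC (LFC 1.02 ± 0.22, adjusted p = 0.0292), without overlap. IL1A, an alarm cytokine of epithelia, had 17.7, 13.6 and 17.8 CPM in control, 9.05, 9.85 and 14.9 CPM with PG/VG and 14.4, 14.98 and 18.8 CPM with EC (LFC 0.52 ± 0.12, adjusted p = 0.0391). For IL1A the carrier was below control (LFC −0.55, adjusted p = 0.0115) and EC had an LFC of −0.030 against control (adjusted p = 0.906). IL24 passed with any library left out. CXCL2 was lost in each of the 6 fits without a treated library, and IL1A in all of those except the fit without PG/VG replicate 4, with adjusted p up to 0.411. IL6 (LFC 0.60), CXCL8 (0.27) and IL1B (0.34) did not pass. None of 53 interferon-stimulated genes passed, while 9 had an unadjusted p under 0.05, against 12.9% of all genes, and their median LFC was 0.087.

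SHISA2 (ENSG00000180730, chr13:26044600-26052000 on GRCh38, minus strand), an endoplasmic reticulum protein that limits the export of Wnt and FGF receptors, had the smallest adjusted p of all. It had 28.7, 27.9 and 52.96 CPM in control, 25.9, 25.4 and 54.3 CPM with PG/VG and 83.2, 78.9 and 114 CPM with EC (LFC 1.45 ± 0.10, adjusted p = 3.24e-08). NEGR1, an adhesion protein of the cell surface, had 3.4, 3.67 and 3.47 CPM with PG/VG and 8.25, 7.41 and 11.9 CPM with EC (LFC 1.38 ± 0.19, adjusted p = 0.000705). SECTM1, a ligand of the lymphocyte protein CD7, had 4.63, 5.14 and 4.42 CPM with PG/VG and 10.9, 12.3 and 7.54 CPM with EC (LFC 1.12 ± 0.18, adjusted p = 0.00257). In all 3 the groups did not overlap, and all 3 passed with any library left out.

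Other large rises rested more on single libraries. VIPR1, a receptor for vasoactive intestinal peptide that signals through cAMP, had 3.65, 2.899 and 6.43 CPM with PG/VG and 8.13, 7.58 and 12.1 CPM with EC (LFC 1.14 ± 0.19, adjusted p = 0.00328), and missed the threshold without PG/VG replicate 4 (adjusted p = 0.065). DMBT1, a secreted scavenger receptor of mucosal surfaces, had 1.47, 1.42 and 3.302 CPM with PG/VG and 2.54, 2.26 and 9.32 CPM with EC (LFC 1.08 ± 0.21, adjusted p = 0.0107). PLA2G7, which inactivates platelet-activating factor, had 1.93, 3.06 and 3.22 CPM with PG/VG and 6.11, 6.68 and 4.31 CPM with EC (LFC 1.07 ± 0.21, adjusted p = 0.0116). ARSL, a sulfatase, had at most 1.98 CPM in any library, with an LFC of 1.30 ± 0.31 (adjusted p = 0.044). The pregnancy-specific glycoproteins PSG1 and PSG5 were higher in EC, with 0.492, 1.37 and 0.429 against 3.13, 2.64 and 1.24 CPM for PSG1 (LFC 1.66 ± 0.32, adjusted p = 0.00936) and 3.89, 2.63 and 1.54 against 9.01, 9.32 and 1.59 CPM for PSG5 (LFC 1.19 ± 0.21, adjusted p = 0.00735). In batch 4 the difference of PSG5 was 0.037 in log2. These 2 were the members that passed among 7 PSG and CEACAM genes tested, where 0.855% of all genes passed. This list too was written with earlier results of these data known, so its share does not show an excess. PSG genes are close copies of each other, so reads may be lost or assigned between them. Both PSG calls were lost without PG/VG replicate 2 (adjusted p = 0.261 for PSG1 and 0.0895 for PSG5) and without EC replicate 2. Of the 15 largest rises 8 still passed without PG/VG replicate 2, 9 without EC replicate 2 and 10 to 13 without each of the other treated libraries.

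Of 50 lysosomal genes 3 passed, all higher in EC. The fitted LFC was above 0 in 46 of the 50, and 26 were above 0 in every batch. The median was 0.14, with batch medians of 0.21, 0.13 and 0.073. Of all 16030 genes tested 0.555% were called higher, 8120 were above 0 and 2687 were above 0 in every batch. NEU1, the lysosomal sialidase, had 54.5, 55.96 and 204 CPM with PG/VG and 91.4, 82.6 and 251 CPM with EC (LFC 0.53 ± 0.083, adjusted p = 0.00139). FUCA1, which removes fucose, had 18.8, 18.6 and 40.2 CPM in control, 28.1, 27.1 and 52.6 CPM with PG/VG and 39.9, 39.5 and 69.04 CPM with EC (LFC 0.48 ± 0.082, adjusted p = 0.00359). This gene rose in steps, since PG/VG was itself above control (LFC 0.49, adjusted p = 0.00216). CTSL, the protease cathepsin L, had 76.3, 72.5 and 101 CPM with PG/VG and 102, 95.9 and 128 CPM with EC (LFC 0.39 ± 0.078, adjusted p = 0.0131), and was lost without PG/VG replicate 2 or 4 or EC replicate 2 (adjusted p up to 0.111).

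In the cholesterol and fatty acid synthesis list 27 of 33 genes had an LFC above 0, with a median of 0.16, and 2 passed, both higher, INSIG1 among them. Of all 16030 genes tested 8120 were above 0 and 0.555% were called higher. INSIG1, which retains the sterol sensor in the endoplasmic reticulum, had 16.5, 15.4 and 50 CPM with PG/VG and 19.9, 20.2 and 72.95 CPM with EC (LFC 0.41 ± 0.091, adjusted p = 0.0296). The list median was 0.060 in batch 2, 0.033 in batch 3 and 0.35 in batch 4 and so was largest in batch 4. Neither of the 2 passed without PG/VG replicate 2 (adjusted p = 0.0558 for INSIG1), EC replicate 2 (0.054), PG/VG replicate 4 (0.235) or EC replicate 4 (0.135), and INSIG1 missed the threshold without EC replicate 3 as well (0.0574). Of 28 lipid droplet and triglyceride genes none passed, 4 had an unadjusted p under 0.05, against 12.9% of all genes, and the median LFC was 0.014. The droplet coat gene PLIN2 had 92.2, 100.4 and 102 CPM with PG/VG and 105, 96.2 and 97.8 CPM with EC (LFC 0.021 ± 0.072, adjusted p = 0.944).

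Single members passed in other stress and signalling lists, where 0.855% of all genes tested passed. CDKN1A, the cell cycle inhibitor p21, had 288, 296 and 739 CPM with PG/VG and 360.2, 341 and 1002 CPM with EC (LFC 0.33 ± 0.073, adjusted p = 0.0314). An LFC above 0 was found in 21 of 26 p53 targets (median 0.17), as in 8120 of all 16030 genes. NDRG1, a hypoxia-responsive gene, had 52.5, 55.7 and 89.4 CPM with PG/VG and 63.9, 71.8 and 146 CPM with EC (LFC 0.46 ± 0.081, adjusted p = 0.00444), the 1 called member of 32 hypoxia and glycolysis genes. The immediate early gene IER3, 38.9% of whose exon length other genes overlap, had an LFC of 0.49 ± 0.10 (adjusted p = 0.014) and VASN, which binds TGF-beta, one of 0.33 ± 0.076 (adjusted p = 0.0347). The cationic amino acid transporter SLC7A1 was lower in EC, by an LFC of −0.33 ± 0.070 (adjusted p = 0.0233). It is a member of the ATF4 list, as is SLC7A5, which rose, and the median of the 35 ATF4 genes tested was −0.11. Without PG/VG replicate 2 the calls of CDKN1A, IER3, VASN and SLC7A1 were lost (adjusted p = 0.207, 0.224, 0.276 and 0.268). Of the 9 fits with 1 library left out, CDKN1A passed in 4, NDRG1 in 7, IER3 in 5, VASN in 3 and SLC7A1 in 6. No gene passed among 24 unfolded protein response genes, 22 heat shock genes and 112 ribosome biogenesis factors, of which 3, 3 and 17 had an unadjusted p under 0.05, against 12.9% of all genes. The list medians were 0.065, 0.026 and −0.061. An LFC above 0 was found in 17 of the 24 unfolded protein response genes and 18 of the 22 heat shock genes. Of the 112 ribosome biogenesis factors 84 were below 0 and 38 were below 0 in every batch, as were 7910 and 2335 of all 16030 genes. IER3 and VASN were the called members of 33 EGF receptor ligand and immediate early genes (median 0.079) and of 31 YAP and TGF-beta targets (median −0.041). The median was 0.064 in the hypoxia and glycolysis list and 0.023 in the list of 31 cAMP signalling genes, where VIPR1 rose and PDE1C fell.

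**Figure D3:**
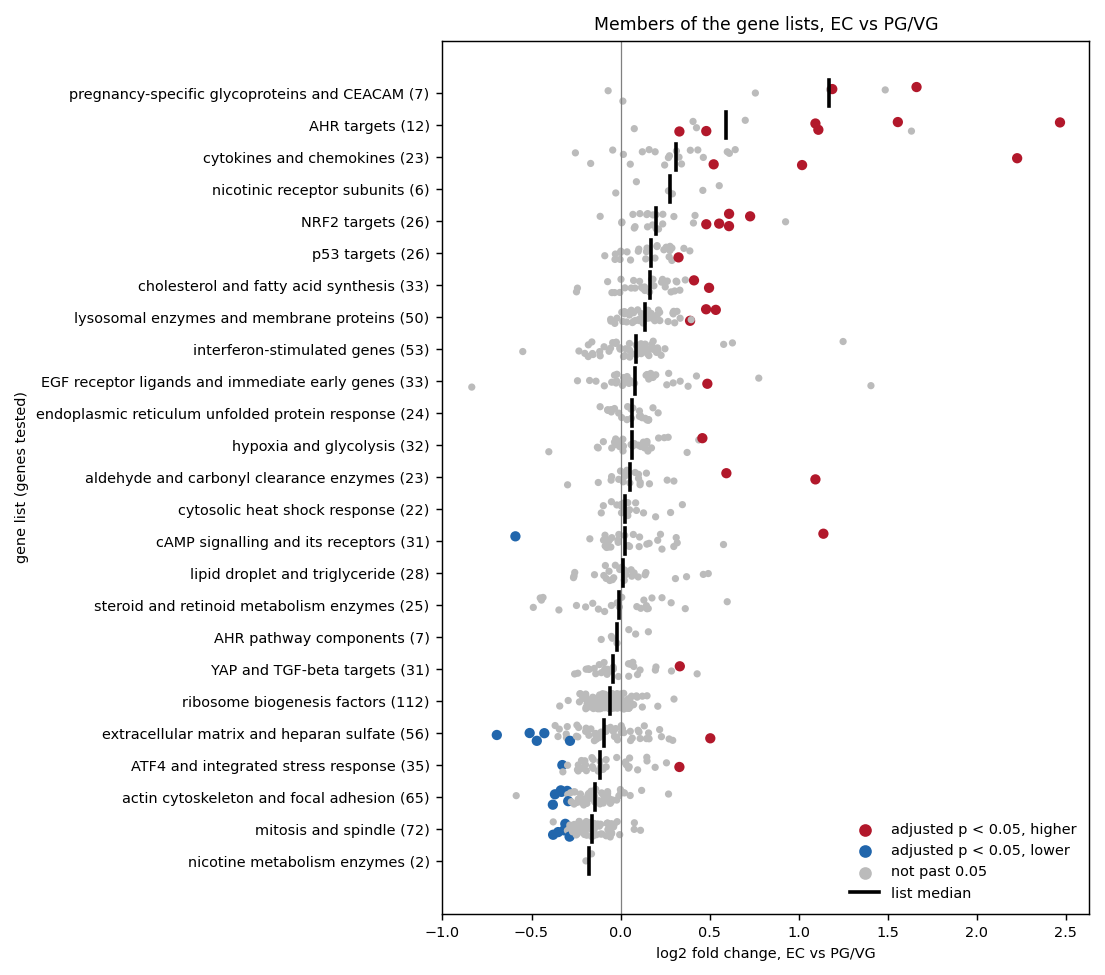
Fitted LFC of EC against PG/VG for every tested member of the 25 gene lists, ordered by list median (black bars). Red points passed as higher, blue points passed as lower and grey points did not pass. The rises of CYP1A1 and IL24 lie past an LFC of 2, and the lowest called member is SULF1 at −0.69.

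The receptors that nicotine binds gave no call. Of 16 nicotinic subunit genes listed, 6 were expressed at testable levels, none of which passed. CHRNA5 had 6.64, 7.71 and 9.52 CPM with PG/VG and 9.799, 8.64 and 10.5 CPM with EC (LFC 0.29 ± 0.13, adjusted p = 0.328). CHRNA7 had 1.15, 0.656 and 0.815 CPM with PG/VG and 1.35, 1.19 and 1.09 CPM with EC (LFC 0.46 ± 0.31, adjusted p = 0.576), and CHRNB1 had 17.4, 14.6 and 16.3 CPM with PG/VG and 15.6, 14.3 and 17.6 CPM with EC (LFC −0.027 ± 0.11, adjusted p = 0.955). The median LFC of the 6 was 0.28, and 1 had an unadjusted p under 0.05, which 12.9% of all genes reached. Only 2 of 13 nicotine metabolism enzymes were expressed at testable levels, AOX1 and CYP2S1, with LFCs of −0.16 and −0.19 that did not pass.

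Among genes lower in EC, the actin cytoskeleton and focal adhesion list had 6 DEGs of 65 tested and none higher. Over all genes tested 0.299% were called lower and 0.555% higher. Among them were the filamins FLNA and FLNC, which crosslink actin, the actinins ACTN1 and ACTN4, which bundle it at adhesion sites, and ARHGEF2, a guanine nucleotide exchange factor. The LFC was below 0 in 59 of 65 genes, as in 7910 of all 16030 genes tested. The list had a median of −0.15 and batch medians of −0.19, −0.13 and −0.15. The 2657 genes with a transcript of 5917 bases or more had batch medians of −0.18, 0.072 and −0.066. Of these, 21 were called lower. Of 5344 genes with a mean level from 46.3 CPM up, 3299 were below 0 and 36 were called lower. With the trends of each library with length and GC content removed, all 6 DEGs still passed. Whether the list differs from genes of like length and level was not tested. FLNA had 3133, 3579 and 2594 CPM in control, 3785, 3722 and 2687 CPM with PG/VG and 2718, 3175 and 2188 CPM with EC (LFC −0.34 ± 0.070, adjusted p = 0.0182). FLNC had 593, 585 and 621 CPM with PG/VG and 401, 495 and 506 CPM with EC (LFC −0.37 ± 0.072, adjusted p = 0.0107). For FLNA the groups overlapped, with batch 4 low in both, and for FLNC they did not. ACTN4 had an LFC of −0.33 ± 0.071 (adjusted p = 0.0233), ACTN1 of −0.30 ± 0.068 (adjusted p = 0.0341) and ARHGEF2 of −0.29 ± 0.064 (adjusted p = 0.0291). The fall of FLNA was −0.48, −0.23 and −0.30 in batches 2, 3 and 4. All 6 calls were lost without PG/VG replicate 2 (adjusted p between 0.166 and 0.323) and without EC replicate 2 (0.0837 to 0.163), and 3 or 4 of the 6 remained without each of the other treated libraries. RHOA itself had 421, 441 and 399 CPM with PG/VG and 499.8, 420.2 and 369 CPM with EC (LFC 0.022 ± 0.072, adjusted p = 0.94). The adhesion adaptor FBLIM1 (LFC −0.23 ± 0.071, adjusted p = 0.15) and the GTPase-activating protein DLC1 (−0.26 ± 0.076, adjusted p = 0.118) did not pass.

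Extracellular matrix genes moved in both directions, with 5 lower and 1 higher of 56 tested and a median LFC of −0.095. Over all genes tested 0.299% were called lower and 0.555% higher. FN1, which encodes fibronectin, had 5233, 5545 and 3596 CPM in control, 5372, 4621 and 3292 CPM with PG/VG and 3138, 4150.0 and 2359.7 CPM with EC (LFC −0.47 ± 0.085, adjusted p = 0.00694). The drop was uneven, with differences of −0.78, −0.16 and −0.48 in log2 in batches 2, 3 and 4. TIMP3 (ENSG00000100234, chr22:32801700-32863000 on GRCh38, plus strand), an inhibitor of matrix metalloproteinases, had 177, 189 and 114 CPM in control, 157, 158 and 120.4 CPM with PG/VG and 119.8, 116 and 74.8 CPM with EC (LFC −0.51 ± 0.074, adjusted p = 0.000787), with every EC library below its PG/VG partner and no overlap. COL8A1, a short-chain collagen, had 237, 216 and 143 CPM with PG/VG and 158, 165 and 115 CPM with EC (LFC −0.43 ± 0.073, adjusted p = 0.00359). LOXL2, which crosslinks collagen, had 700.0, 726 and 585 CPM with PG/VG and 563, 591 and 496 CPM with EC (LFC −0.28 ± 0.064, adjusted p = 0.0323). SULF1, which edits heparan sulfate, had 7.29, 6.73 and 2.32 CPM with PG/VG and 4.32, 4.26 and 1.49 CPM with EC (LFC −0.69 ± 0.16, adjusted p = 0.0422).

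MMP1, the interstitial collagenase, was the member that rose, with 232, 205 and 1158 CPM in control, 141, 149 and 676 CPM with PG/VG and 225, 218 and 821 CPM with EC (LFC 0.50 ± 0.088, adjusted p = 0.00691). PG/VG was below control for MMP1 (LFC −0.66, adjusted p = 0.000351), and EC had an LFC of −0.15 against control (adjusted p = 0.277). Of these 6 matrix genes TIMP3 alone passed with any library left out. Without PG/VG replicate 2 the adjusted p was 0.119 for FN1, 0.0558 for COL8A1, 0.238 for LOXL2, 0.276 for SULF1 and 0.0793 for MMP1. FN1 also missed the threshold without PG/VG replicate 4 or EC replicate 4, MMP1 without PG/VG replicate 4 or EC replicate 2, and LOXL2 and SULF1 without any 1 of the 6 treated libraries.

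**Figure D4:**
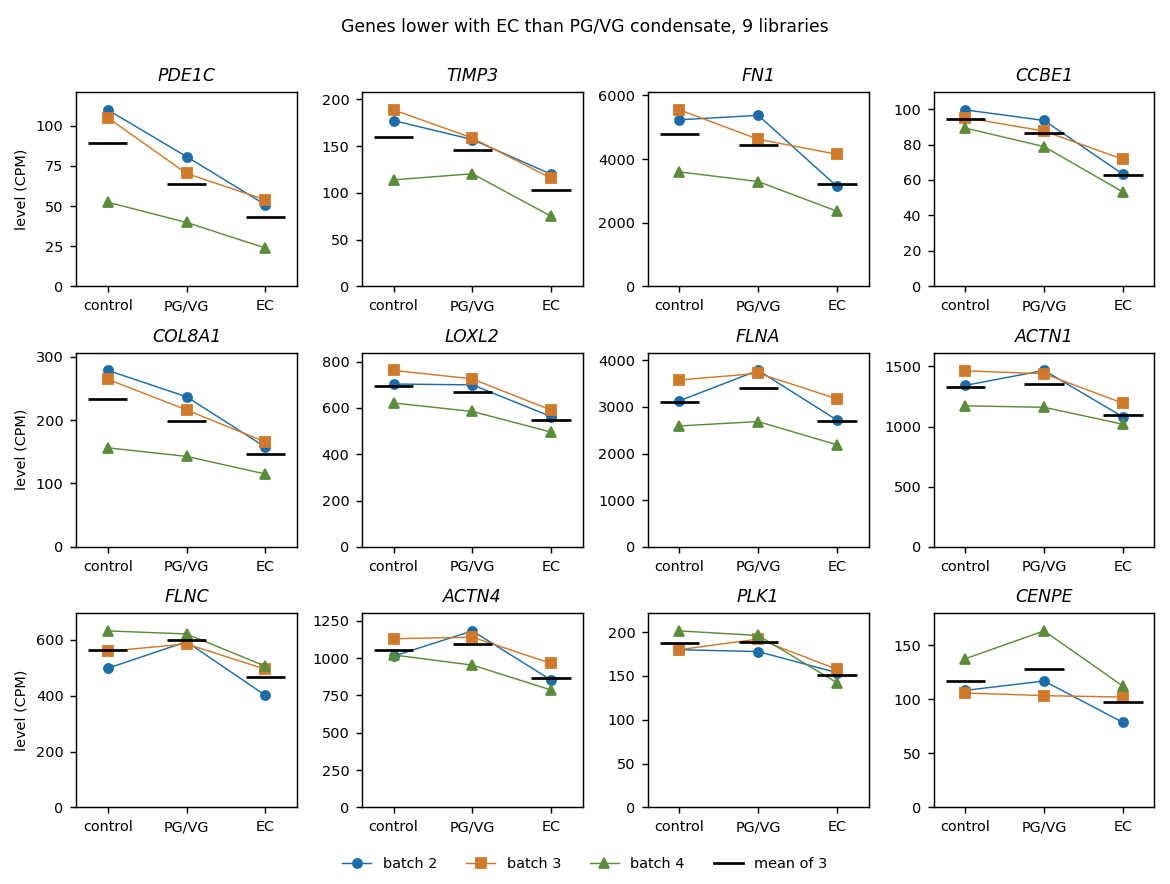
Level in CPM (linear axes from 0) of 12 genes lower with EC, in control, PG/VG and EC libraries. Lines join the 3 libraries of a batch and black bars are group means. In each panel the EC point lies below the PG/VG point of its batch, and in TIMP3, CCBE1, FLNC and PLK1 the EC libraries lie below all PG/VG libraries.

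Of 72 mitosis genes 5 passed, all lower in EC. The fitted LFC was below 0 in 69 of the 72, with a median of −0.16, and 44 were below 0 in every batch. Of all 16030 genes tested 0.299% were called lower, 7910 were below 0 and 2335 were below 0 in every batch. PLK1, a mitotic kinase, had 178, 192 and 196 CPM with PG/VG and 154, 158 and 142 CPM with EC (LFC −0.32 ± 0.072, adjusted p = 0.0331). CENPE, a kinetochore motor, had 117, 103 and 163 CPM with PG/VG and 78.5, 102 and 112 CPM with EC (LFC −0.38 ± 0.088, adjusted p = 0.0454). KIF18B, a microtubule depolymerase, had an LFC of −0.35 ± 0.078 (adjusted p = 0.0306), INCENP, a scaffold of the chromosomal passenger complex, of −0.31 ± 0.075 (adjusted p = 0.0498) and the condensin subunit NCAPD2 of −0.29 ± 0.066 (adjusted p = 0.0388). The list median was −0.13 in batch 2, −0.075 in batch 3 and −0.30 in batch 4. No member that passed did so without PG/VG replicate 2 (adjusted p between 0.115 and 0.495) or without EC replicate 4 (0.07 to 0.184), 1 did without PG/VG replicate 4 or EC replicate 2, 2 without PG/VG replicate 3 and 1 when total counts were the only scaling.

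PDE1C (ENSG00000154678, chr7:31751200-32428100 on GRCh38, minus strand), a calmodulin-dependent phosphodiesterase that degrades cyclic nucleotides, had the smallest adjusted p among the falls. Its level was 109.9, 105 and 52.4 CPM in control, 80.8, 70.3 and 39.8 CPM with PG/VG and 50.9, 53.9 and 23.9 CPM with EC (LFC −0.59 ± 0.079, adjusted p = 0.000334). It stepped down within each batch, as PG/VG was below control (LFC −0.47, adjusted p = 0.00115). CCBE1, a secreted factor of lymphatic vessel growth, had 93.6, 87.6 and 78.8 CPM with PG/VG and 63.3, 71.7 and 53.3 CPM with EC (LFC −0.47 ± 0.077, adjusted p = 0.00232), without overlap. CAVIN2, a caveola coat protein, had 33.8, 29.9 and 22.1 CPM with PG/VG and 23.7, 22.4 and 16.3 CPM with EC (LFC −0.46 ± 0.089, adjusted p = 0.0105). PRICKLE1, of the planar polarity pathway, had an LFC of −0.50 ± 0.12 (adjusted p = 0.0439), TTC28 of −0.50 ± 0.10 (adjusted p = 0.0105) and C6orf132 of −0.42 ± 0.086 (adjusted p = 0.0159).

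Pseudogenes and non-coding genes were also among the falls. The processed pseudogenes DHFRP1 and RPL12P4 had at most 4.81 CPM in any library, with an LFC of −1.11 ± 0.27 for DHFRP1 (adjusted p = 0.0492) and levels of 3.4, 4.81 and 1.84 against 2.26, 1.66 and 0.992 CPM for RPL12P4 (adjusted p = 0.0439), and ANXA2P2 had 27.6, 31.9 and 19.5 CPM with PG/VG and 20.03, 22.4 and 14.7 CPM with EC (LFC −0.46 ± 0.094, adjusted p = 0.0159). All 3 share sequence with expressed parent genes, so their counts are uncertain. LINC01111 had an LFC of −0.61 ± 0.15 (adjusted p = 0.0463), and the unnamed gene ENSG00000279821 of −0.88 ± 0.19 (adjusted p = 0.0234). Of the 15 largest falls 3 still passed without PG/VG replicate 2, 5 without EC replicate 2, 6 without PG/VG replicate 4 and 8 or 9 without each of the other treated libraries. By biotype, 84 of the higher and 43 of the lower DEGs were protein-coding, and 5 and 1 were lncRNAs. DEGs made up 0.973% of 13052 protein-coding genes, 0.269% of 2234 lncRNAs and 0.577% of 520 pseudogenes, against 0.855% of all genes tested. Of the 520 pseudogenes 339 had an LFC below 0, with a median of −0.17.

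Higher and lower DEGs differed in transcript length and level. The canonical transcript had a median length of 2738 bases in the higher DEGs, 5330 bases in the lower DEGs and 2962 bases over all genes, and the median of the mean level was 24.2, 97.9 and 20.9 CPM, a unit that is not corrected for length. The longest sixth of the genes, from 5917 bases up, held 21 of the 48 lower DEGs and 7 of the 89 higher DEGs. Over all genes the difference of EC and PG/VG followed length within each batch, in directions that were not the same. From the shortest to the longest sixth the median log2 difference went from 0.11 to −0.18 in batch 2, from −0.059 to 0.072 in batch 3 and from 0.062 to −0.066 in batch 4. With the trends of each library with length and GC content removed, 87 of the higher and 47 of the lower DEGs still passed, among 206 higher and 210 lower genes in all (49.5% higher).

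**Figure D5:**
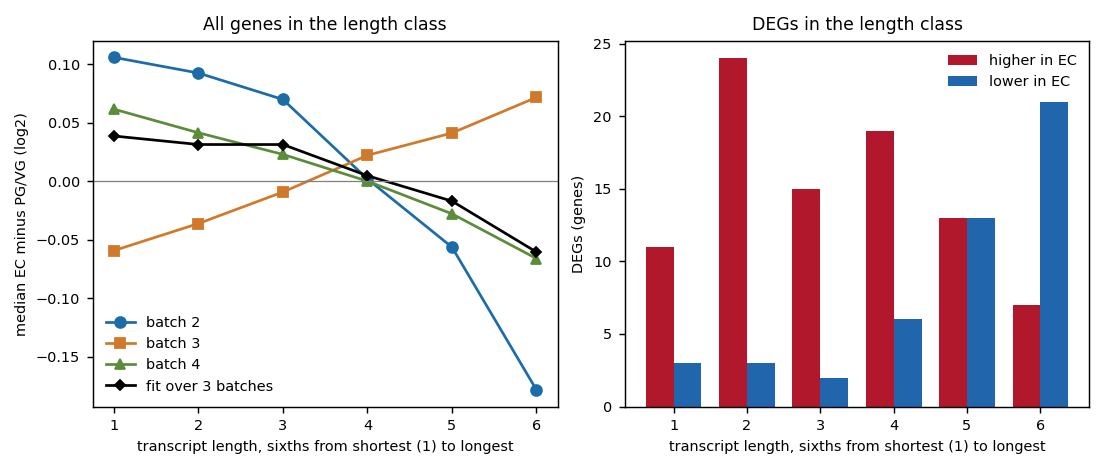
Left, median log2 difference of EC and PG/VG for all genes in 6 classes of transcript length, from the shortest sixth (1) to the longest (6), within each batch and in the fit. Right, number of DEGs per class. Batch 3 rises with length while batches 2 and 4 fall, and the longest class holds 21 lower and 7 higher DEGs.

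Set beside untreated cells, the genes of the comparison had different starting points. EC against control gave DEGs for 13.5% of the genes tested and PG/VG against control for 4.54%. The 3 comparisons share libraries, so their values are only given side by side. CYP1A1, TIPARP, SHISA2, HMOX1 and FTL had LFCs of 0.18, 0.011, −0.072, −0.028 and 0.0023 for PG/VG against control, none of which passed, and of 2.65, 1.12, 1.38, 0.53 and 0.61 for EC against control, all of which did. FLNA and FLNC had LFCs of 0.13 and 0.10 for PG/VG and −0.21 and −0.27 for EC against control, with adjusted p = 0.0495 and 0.0144 for the latter. NCAPD2 and INCENP, lower in EC than PG/VG, did not pass for EC against control (adjusted p = 0.293 and 0.225), where their LFCs were −0.11 and −0.14. The mitosis genes PLK1 and KIF18B did pass there, with LFCs of −0.31 and −0.31 (adjusted p = 0.00648 and 0.0103), and CENPE did not (−0.26, adjusted p = 0.0537). IL1A and MMP1 were lower than control with PG/VG (LFC −0.55 and −0.66), and their LFCs of −0.030 and −0.15 for EC against control did not pass. PSG5, CXCL2 and IER3 had LFCs of −0.70, −0.48 and −0.24 for PG/VG against control, none of which passed. Their LFCs of 0.49, 0.54 and 0.24 for EC against control did not pass either (adjusted p = 0.127, 0.114 and 0.0998).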

How the data were processed

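The authors sequenced poly-A RNA of BEAS-2B cells as paired reads, used fastp for trimming and STAR for alignment on GRCh38.p12, and counted exons with featureCounts of Subread 2.0.4, ignoring multi-mapping and multi-overlapping reads, so reads on exons shared by overlapping genes are missing. The strand setting is not given in the sources used here. These raw counts, for 63187 genes in 9 columns, are what was deposited. Every column was used, and the totals (16168260 to 24917838 counts) limit the precision of low genes.

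Genes reaching 10 counts in 3 or more libraries were fitted in R 4.3.3 with edgeR 4.0.16 (TMM, robust dispersions, quasi-likelihood fit of all 9 libraries with condition and batch), with Benjamini-Hochberg adjustment at 0.05. The SE of an LFC is its size divided by the square root of F. CPM use TMM-scaled library sizes, and differences per batch a prior count of 2. The study's route, ComBat-Seq (sva 3.50.0) with DESeq2 1.42.0, was an alternative. Same-numbered libraries share a batch per the labels, and their deviations from the condition means correlated at 0.334 to 0.707 across genes. Libraries of batches 2 and 3 correlated with each other at 0.280 to 0.426 and with batch 4 at −0.539 to −0.419, so the correlations set batch 4 apart and do not separate batches 2 and 3. No 2 replicates were copies of each other. The methods call the libraries biological replicates without describing the cultures further, so p-values measure the spread between these libraries, which may be technical. The steps were tested on simulated data.

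Named genes were the 15 rises and 15 falls of greatest size, taken from DEGs of 1 sign in each batch whose higher group had 20 or more counts in each library, the called members of 25 lists written from general knowledge, and a few further names. A few genes that fall under this rule are not reported here. The comparison, its members and the lists were chosen with earlier results of these data known. Gene positions, lengths and overlaps come from GENCODE (15949 of 16030 identifiers matched) and promoters from RefSeq (11426 genes matched). Gene positions are rounded, so their last digits are not exact, whereas promoter positions are not rounded.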

Additional observations from a re-analysis of the deposited data

How the results depend on the processing

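The replicate number was a block in the fit. With no replicate block, edgeR's quasi-likelihood test called 1 gene higher in EC, CYP1B1, and 0 lower. In that fit 458 genes reached an unadjusted p below 0.05. The call was lost, with its direction kept, for 61 named genes, which left CYP1B1 as the only named gene to pass. The rest of the 72 named genes had not passed with the block either. DESeq2 with batch in the model gave 91 higher and 84 lower genes, 121 of the 137 DEGs among them. No named gene that passed turned its direction in any setting tried. RHOA, PLIN2 and CHRNB1, which did not pass and had LFCs near 0, did so, among others without PG/VG replicate 2 (−0.064, −0.043 and 0.079).

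The count of higher and lower genes was 145 and 31 with total counts as the only scaling, 165 and 144 with genes of at least 1 count in any library, 195 and 121 in the 6 EC and PG/VG libraries alone, 299 and 359 with ComBat-Seq then DESeq2, and 39 and 6 at an adjusted p under 0.01. Chosen after seeing the data, removal of the length and GC trend gave 206 and 210. The cause of these differences was not tested. RLE normalization (97 and 51) and at least 10 counts in every library (98 and 43) stayed within 1.5 times of 89 and 48. Of the 137 DEGs, 137 passed with RLE, 120 with total counts, 129 with at least 10 counts in every library, 137 in the 6 libraries alone, 130 with ComBat-Seq and 134 with the trend removed.

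With 1 library left out in turn, the higher genes ranged from 29 (without PG/VG replicate 2) to 129 (without control replicate 4) and the lower genes from 4 (without PG/VG replicate 2) to 81 (without EC replicate 3). Without the whole of batch 2, 3 or 4 they were 36 and 8, 61 and 73, and 65 and 28. Of the named genes, 44 lost their call without PG/VG replicate 2 and 38 without EC replicate 2. With 3 libraries a condition and small differences, genes at about 1 CPM rest on few reads, and a gene that did not pass is not shown to be equal in EC and PG/VG.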

Other observations

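Of the 22 higher DEGs that passed with any single library left out, 10 were not described above, and they are named here after their values were seen. KRT17, a keratin of stressed and basal epithelium, had 146, 155 and 48.03 CPM with PG/VG and 237, 196 and 80.05 CPM with EC (LFC 0.59 ± 0.088, adjusted p = 0.00128). RIPK4, a kinase of epidermal differentiation, had 27.1, 27.2 and 35.8 CPM with PG/VG and 42.7, 39.6 and 47.7 CPM with EC (LFC 0.54 ± 0.082, adjusted p = 0.00128). KLF9, a transcription factor that glucocorticoids induce, had 24.2, 22.5 and 19.3 CPM with PG/VG and 36.5, 38.9 and 26.6 CPM with EC (LFC 0.62 ± 0.10, adjusted p = 0.00128). GREM1, a secreted inhibitor of bone morphogenetic proteins, had 85.9, 81.4 and 157 CPM with PG/VG and 141, 141 and 199.9 CPM with EC (LFC 0.62 ± 0.092, adjusted p = 0.00186). RRAGD, a GTPase that couples lysosomal nutrient state to mTORC1, had 11.3, 10.01 and 17.7 CPM with PG/VG and 16.4, 15.96 and 27.9 CPM with EC (LFC 0.62 ± 0.10, adjusted p = 0.00189). SLC37A2, a sugar phosphate transporter, had an LFC of 0.68 ± 0.091 and KCNAB2, a potassium channel subunit, of 0.70 ± 0.11. The remaining 3 were GNG11 (0.59 ± 0.095), TMEM156 (0.60 ± 0.086) and MBP (0.50 ± 0.076). EC was above PG/VG in each batch for every one of the 10.

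Among lower DEGs outside the lists, also named after their values were seen, were the collagen receptor DDR2 with 104, 97.1 and 21.3 CPM with PG/VG and 74.5, 77.8 and 15.7 CPM with EC (LFC −0.41 ± 0.080, adjusted p = 0.0107), the guidance ligand SLIT2 (LFC −0.41 ± 0.081, adjusted p = 0.0116), the semaphorin receptor PLXNA2 (LFC −0.36 ± 0.082, adjusted p = 0.0379), the desmosome protein PKP2 (LFC −0.40 ± 0.079, adjusted p = 0.0116) and the crosslinking enzyme TGM2 (LFC −0.35 ± 0.078, adjusted p = 0.0299). None of these 5 passed without PG/VG replicate 2, where their adjusted p was 0.15, 0.221, 0.441, 0.139 and 0.22.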
